A study of Homo sapiens with 24 samples.

Results

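MYC and 40 ribosome biogenesis factors were followed by gene symbol through every library of both RNA-seq experiments in LNCaP, an androgen-sensitive prostate cancer cell line. All 41 genes were present in each table, of 23946 genes found in any table, and all 41 passed the filters on low values in both experiments. By role they comprised the regulator MYC, 4 factors of RNA polymerase I, 3 box C/D and 3 box H/ACA ribonucleoprotein components, 1 small nucleolar ribonucleoprotein chaperone, 4 abundant nucleolar proteins, 15 factors of the small subunit and 10 of the large subunit.

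The study asked how enzalutamide (Enz), an antagonist of the androgen receptor, alters transcription, and whether the pioneer factor GATA2 takes part. In the ligand experiment LNCaP cells received vehicle, 10 µM Enz for 4 or 24 h, or 10 nM of the androgen DHT for 4 or 24 h. In the siRNA experiment cells were transfected with non-targeting siRNA (siControl) or siRNA against GATA2 (siGATA2). From 72 h after transfection they received vehicle or 25 µM Enz for 24 h. Every group had first been held for 3 days in phenol red-free medium with charcoal-stripped serum, so the controls were androgen-deprived too. The vehicle of the ligand experiment carries no time label. LNCaP is a single line, and the Enz doses and table units of both experiments differed, so their values are set side by side without a test.

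Ribosome biogenesis starts in the nucleolus, where RNA polymerase I makes the precursor of the large ribosomal RNAs. Box C/D and box H/ACA particles modify that precursor, while assembly factors cleave, fold and export the small and the large subunit. MYC, a basic helix-loop-helix transcription factor that pairs with MAX on E-box motifs, is known to activate many of these genes, and it is a recurrent target of amplification and overexpression in prostate cancer.

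Promoter windows of 300 bases, from 250 before to 50 after the RefSeq gene start (GRCh38.p14), were available for 34 of the 41 genes. The E-box CACGTG, which reads the same on both strands, stood in 14 of them (41.2%), against 7.26% of the 35116 windows in the whole table. In those 14 windows the nearest CACGTG began 3 to 35 bases from the gene start, with a median of 14.5, against a median of 72 over the 2548 windows that hold the motif. The GATA motifs AGATAA or TGATAA, on either strand, stood in 2 of the 34 windows (5.88%) against 16.3% of all. The 35116 windows were not limited to the genes tested here, and they were not matched to the 34 in base composition. What the shares and distances owe to base composition was not tested. A match of letters is not a measured binding site. The 4 windows below belong to the CACGTG-holding genes with the smallest adjusted p after 24 h of DHT, and are printed 5′ to 3′ on the gene's strand with the motif in capitals. They are chr2:28894417-28894716 (plus strand) for WDR43, chr12:6568242-6568541 (minus) for NOP2, chr16:69132399-69132698 (plus) for UTP4 and chr3:51941855-51942154 (minus) for RRP9.
WDR43: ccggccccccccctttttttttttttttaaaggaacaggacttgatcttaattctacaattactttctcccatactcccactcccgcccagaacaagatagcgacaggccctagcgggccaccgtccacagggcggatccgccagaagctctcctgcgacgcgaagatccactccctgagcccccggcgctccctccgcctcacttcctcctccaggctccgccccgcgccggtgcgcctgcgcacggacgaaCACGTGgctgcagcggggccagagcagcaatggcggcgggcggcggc
NOP2: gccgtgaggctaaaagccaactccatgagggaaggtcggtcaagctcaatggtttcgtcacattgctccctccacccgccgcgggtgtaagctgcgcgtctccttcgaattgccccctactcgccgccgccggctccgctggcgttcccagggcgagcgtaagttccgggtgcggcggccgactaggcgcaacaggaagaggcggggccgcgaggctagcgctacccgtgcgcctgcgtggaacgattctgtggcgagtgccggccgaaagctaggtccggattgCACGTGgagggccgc
UTP4: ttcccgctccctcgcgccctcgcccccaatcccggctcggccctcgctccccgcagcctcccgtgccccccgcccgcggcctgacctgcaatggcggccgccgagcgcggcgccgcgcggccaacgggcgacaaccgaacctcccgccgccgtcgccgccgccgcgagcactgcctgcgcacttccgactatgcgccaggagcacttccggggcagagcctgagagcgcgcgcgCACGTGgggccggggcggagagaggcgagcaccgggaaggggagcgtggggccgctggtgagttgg
RRP9: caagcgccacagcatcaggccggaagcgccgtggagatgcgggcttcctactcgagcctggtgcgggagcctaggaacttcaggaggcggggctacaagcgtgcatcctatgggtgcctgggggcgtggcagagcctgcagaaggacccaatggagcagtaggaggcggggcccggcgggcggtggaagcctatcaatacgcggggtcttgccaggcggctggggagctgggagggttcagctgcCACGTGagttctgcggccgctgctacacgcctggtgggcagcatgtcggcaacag

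In WDR43 the motif began 3 bases after the gene start and in NOP2 35 bases after it. In UTP4 it began 16 bases before the start and in RRP9 5 bases before it. The authors' reads were aligned to hg19, so these coordinates were not joined to the deposited tables, which were matched by symbol.

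Estimated counts of the 10 ligand libraries totalled 38894876 to 59985287 each (n = 2 per condition), and the 12 siRNA libraries were deposited as RPKM with no depth (n = 3). Prostate luminal markers were abundant in every library, their sum ranging from 3820 to 6280 normalized CPM (counts scaled to a common library size) and from 746 to 1530 RPKM. Summed basal markers reached at most 0.484 CPM and 0.113 RPKM, and leukocyte markers at most 0.182 CPM and 0.0429 RPKM. Summed fibroblast markers were 14.4 to 28.5 CPM and 9.62 to 16.3 RPKM, nearly all of it COL1A1, and endothelial markers 8.47 to 21.4 CPM and 0.371 to 1.3 RPKM, nearly all of it VWF. COL1A1 fell after 24 h of DHT (log2 fold change -0.66) and rose with siGATA2 in vehicle (0.54), while VWF fell after 24 h of Enz (-0.87) and rose after 24 h of DHT (0.40). Their part in the results was not tested.

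Column names of the ligand tables begin with ZC1, ZC2 or ZC3, a prefix whose meaning is not given in the sources used here. Both 4 h DHT libraries carry ZC1, both 4 h Enz libraries ZC2, both 24 h Enz libraries ZC3, and the 24 h DHT libraries ZC2 and ZC3. Vehicle replicate 1 has a column under each prefix and replicate 2 under ZC1 only. No prefix holds both conditions of 24 against 4 h of Enz, 24 against 4 h of DHT, or DHT against Enz at 4 h. In those direct tests prefix and condition cannot be told apart. Each condition can be set against vehicle of its own prefix, which was done without a test. MYC then had log2 ratios of -0.30 and -0.18 after 4 and 24 h of Enz. After DHT they were -0.08 at 4 h and 0.35 at 24 h under both ZC2 and ZC3. Under ZC2 and ZC3 the vehicle was a single column.

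In bulk RNA, fewer cells of a type and less RNA per cell cannot be told apart. GATA2 itself stood at 82.3 RPKM ± 4.72 (SD, n = 3) in siControl vehicle and 51.4 ± 4.22 in siGATA2 vehicle, a partial knockdown, and at 129 ± 1.97 and 62.1 ± 2.37 under Enz.

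Per transcript length, the 41 genes spanned a wide range in siControl vehicle cells. Nucleolin (NCL), a pre-rRNA-binding protein of the nucleolus, was the highest at 316 RPKM ± 5.40 (SD, n = 3), ahead of the box C/D methyltransferase FBL at 247 ± 16.0 and the histone chaperone NPM1 at 118 ± 5.99. MYC ranked 8 at 62.5 RPKM ± 2.27, above 95.5% of the genes tested. The median gene stood at 20.6 RPKM. BOP1, a large-subunit factor, was the lowest at 2.00 RPKM ± 0.216, and its low RPKM contrasts with 65.1 CPM in ligand vehicle, a difference between separately made tables whose cause was not tested. From RRP9 at rank 20 down to PPAN at rank 30, each gene overlapped its neighbour in the order.

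MYC was lower with Enz than with vehicle in the ligand experiment and in siControl cells, and higher after 24 h of DHT. Within the siRNA experiment MYC was lowest with siGATA2. In the ligand experiment it was 170.6 and 173.3 CPM in vehicle, 137.2 and 135.2 after 4 h of Enz, and 150.7 and 152.2 after 24 h of Enz. It was 161.7 and 164.9 CPM after 4 h of DHT and 213.8 and 217.4 after 24 h. The vehicle libraries lay above all 4 Enz libraries and below both 24 h DHT libraries, without overlap. In the siRNA experiment MYC was 62.77, 60.15 and 64.68 RPKM in siControl vehicle, against 52.11, 52.21 and 49.31 with Enz. With siGATA2 it was 18.36, 18.34 and 20.22 RPKM in vehicle, and 17.15, 16.54 and 17.40 with Enz. All 6 siGATA2 libraries lay below all 6 siControl libraries.

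**Figure D1:**
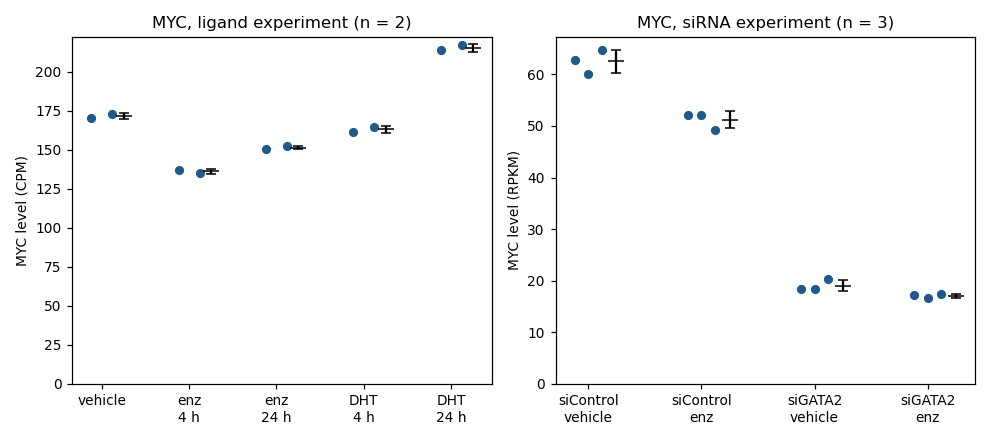
MYC level in each library, as CPM in the ligand experiment (left) and RPKM in the siRNA experiment (right). Points are libraries, and the bar beside them is the mean ± SD; the siGATA2 libraries sit between 16.54 and 20.22 RPKM, far below the siControl libraries at 49.31 to 64.68 RPKM.

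After 4 h of Enz most of the ribosome biogenesis genes were lower or flat. Of the 41, 25 fell and none rose, where 6.68% of all 15555 genes tested were called down and 6.94% up (edgeR quasi-likelihood test, Benjamini-Hochberg adjusted p below 0.05). The median log2 fold change of the 41 was -0.18, against 0.001 over all genes, and 0 of them were past 2-fold lower, where 0.354% of all genes were (unadjusted p below 0.05). DESeq2 also called 25 down and 0 up. At an unadjusted p below 0.05, 28 were lower and 0 higher, and the share of all genes at that threshold was not counted. MYC fell by 0.34 on the log2 scale (SE 0.033, adjusted p = 3.49e-05), to 79.2% of vehicle. Of the large-subunit factors 9 of 10 fell, with a range of -0.64 to -0.08. RRS1, which brings 5S RNA-protein complexes into the large subunit, had 49.65 and 49.20 CPM in vehicle and 35.96 and 34.31 after Enz, a fall of 0.49 (SE 0.044, adjusted p = 1.39e-05). Its groups did not overlap. Of the small-subunit factors 9 of 15 fell, and WDR43, a component of the small-subunit processome, went from 87.67 and 89.51 CPM to 66.93 and 69.08 (log2 fold change -0.38, SE 0.041, adjusted p = 7.57e-05).

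Among the other roles at 4 h, the box C/D core protein NOP56 fell from 234.5 and 224.4 CPM to 175.5 and 164.4 (log2 fold change -0.43, SE 0.040, adjusted p = 2e-05). POLR1B, a catalytic subunit of RNA polymerase I, was the only gene of its role to fall, from 65.18 and 60.45 CPM to 48.84 and 52.02 (log2 fold change -0.32, SE 0.054, adjusted p = 0.00213). Both stood clear of vehicle. The rRNA pseudouridine synthase DKC1 fell from 178.6 and 170.3 CPM to 152.2 and 156.8, a log2 change of -0.18 (SE 0.036, adjusted p = 0.00693). NOLC1, a chaperone of small nucleolar particles, and NCL changed by -0.12 each (adjusted p = 0.023 and 0.0225). These 3 small changes did not hold under every alternative, where the adjusted p reached 0.0808 for DKC1, 0.18 for NOLC1 and 0.138 for NCL. The count of 25 rested partly on 1 library, since leaving out vehicle replicate 1 gave 14, as did a fit of only the compared groups. Within the ZC2 columns, 38 of the 41 genes were lower and the median log2 ratio was -0.17, with no test.

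After 24 h of Enz 27 of the 41 genes fell and 1 rose, where 17.0% of all genes were called down and 16.4% up. Their median was -0.20 on the log2 scale. MYC fell by 0.18 (SE 0.033, adjusted p = 0.000869), to 88.1% of vehicle. All 3 box C/D proteins fell, led by NOP58, whose 140.9 and 133.8 CPM in vehicle became 104.1 and 100.1 (log2 fold change -0.43, SE 0.039, adjusted p = 2.15e-06). NCL fell from 1234 and 1258 CPM to 984.8 and 985.8 (log2 fold change -0.34, SE 0.031, adjusted p = 2.16e-06). Neither gene's groups overlapped. GNL3, also called nucleostemin and known from proliferating stem and tumour cells, was the gene that rose, from 329.2 and 327.8 CPM to 366.9 and 374.3 (log2 fold change 0.17).

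At this time 8 of the 10 large-subunit and 10 of the 15 small-subunit factors fell. BOP1, a partner of PES1 and WDR12 in large-subunit maturation, went from 65.28 and 64.96 CPM to 48.84 and 48.34 (log2 fold change -0.42, SE 0.052, adjusted p = 3.81e-05). TSR1, a late small-subunit factor, went from 136.6 and 133.3 CPM to 110.8 and 111.5 (log2 fold change -0.28, SE 0.039, adjusted p = 0.000106). Both were lower than vehicle in either library. DKC1 changed by -0.23 and NOLC1 by -0.20. None of the 4 RNA polymerase I genes was called at 24 h by edgeR, and POLR1B, with an unadjusted p below 0.05, had a log2 change of -0.14 (adjusted p = 0.0629). Within the ZC3 columns the median of the 41 was -0.19 and 38 were lower.

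Between 4 and 24 h of Enz 7 of the 41 genes rose and 5 fell, where 11.7% of all genes were called up and 12.9% down, and the median log2 difference was -0.004. Both 4 h libraries carry ZC2 and both 24 h libraries ZC3, so time and prefix cannot be told apart in this direct test. MYC was higher at 24 h than at 4 h by 0.15 (SE 0.033, adjusted p = 0.00464), a call lost without Enz 24 h replicate 2 (0.14, adjusted p = 0.0604). FBL was lower, with 203.3 and 189.3 CPM at 4 h and 166.5 and 167.3 at 24 h (log2 difference -0.23). The called genes of the list thus went both ways, as did those of all genes tested.

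DHT for 4 h changed little. Of the 41 genes 0 rose and 1 fell, where 4.66% of all genes were called up and 2.11% down. A further count at an unadjusted p below 0.05 gave 8 lower and 0 higher, without a count of all genes at that threshold. DESeq2 also called 1 down and 0 up. Over the 41 the median was -0.05 on the log2 scale. MYC had a log2 change of -0.07 (SE 0.033, adjusted p = 0.239). GNL3, from 329.2 and 327.8 CPM to 300.0 and 307.3, was the 1 gene called (log2 fold change -0.11, adjusted p = 0.0372), and leaving out any of 8 libraries in turn, or using the replicate number as a block, ended that call. Androgen response genes had already moved, with 9 of 10 called up and TSC22D3 called down (log2 fold change -0.33). Within the ZC1 columns 31 of the 41 genes were lower, and the median over all 41 was -0.05.

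DHT for 24 h raised nearly the whole list. Of the 41 genes 37 rose and 0 fell, where 26.9% of all genes were called up and 23.2% down. At an unadjusted p below 0.05, 39 were higher and 0 lower (share of all genes not counted), and DESeq2 called 37 and 0. The median log2 fold change was 0.40, against 0.001 over all genes, with a range of 0.05 to 0.77. Past 2-fold were 0 of the 41, where 2.08% of all genes were higher by that much. MYC rose by 0.33 (SE 0.033, adjusted p = 2.63e-06), 1.25-fold. The 4 genes not called were RRN3 and UBTF, both of RNA polymerase I initiation, the small-subunit endonuclease NOB1 and the large-subunit helicase DDX18, with log2 changes of 0.12, 0.05, 0.08 and 0.09.

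The largest change at 24 h of DHT belonged to NOP16, a large-subunit factor, which went from 32.23 and 30.49 CPM to 52.38 and 55.05 (log2 fold change 0.77, SE 0.059, adjusted p = 2.02e-07). NOP56 went from 234.5 and 224.4 CPM to 350.6 and 353.3 (log2 fold change 0.62, SE 0.039, adjusted p = 3.98e-08). NOLC1 went from 352.6 and 345.7 CPM to 518.0 and 525.9 (log2 fold change 0.58, SE 0.030, adjusted p = 6.24e-09). In each the DHT libraries were all above vehicle. WDR43, whose promoter is printed above, went from 87.67 and 89.51 CPM to 131.5 and 126.3 (log2 fold change 0.54, SE 0.040). DKC1 and NCL rose by 0.38 and 0.39, and POLR1B by 0.34. All 14 genes with a CACGTG in the promoter window rose, and 17 of the 20 without it, where nearly the whole list rose. After 4 h of Enz 10 of the 14 and 10 of the 20 fell. With siGATA2 in vehicle 13 of the 14 and 16 of the 20 fell. No difference between the 14 and the 20 was tested. Within the ZC2 columns the 41 genes were all higher, by a median of 0.42, and within ZC3 also, by 0.39.

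**Figure D2:**
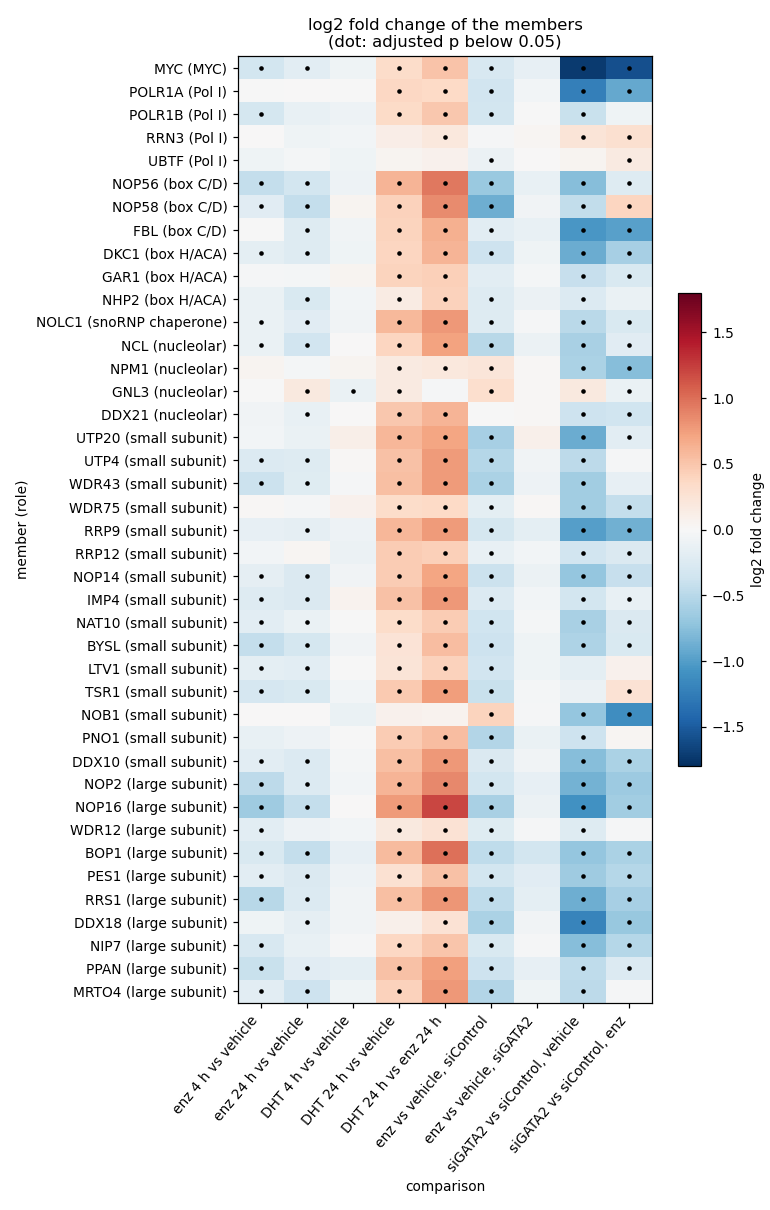
Log2 fold change (color) of each of the 41 genes in 9 comparisons, ordered by role, with a dot where the adjusted p was below 0.05. Blue columns (4 and 24 h of Enz, Enz in siControl cells, siGATA2 against siControl) run across most genes. So do red columns (24 h of DHT against vehicle and against 24 h of Enz). The 4 h DHT column holds 1 dot, and the column of Enz against vehicle in siGATA2 cells none.

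From 4 h (ZC1) to 24 h (ZC2 and ZC3) of DHT all 41 genes rose, where 26.3% of all genes were called up and 23.5% down, with a median of 0.46. MYC rose by 0.40 (SE 0.033, adjusted p = 4.58e-07). RRP9, a U3 particle protein, went from 30.49 and 31.24 CPM to 49.72 and 50.11 (log2 difference 0.69). The 4 and 24 h comparisons of each agent share libraries with those against vehicle, so their values are not independent.

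Set directly against each other, DHT and Enz differed in 19 genes higher and 1 lower with DHT at 4 h, where 8.49% and 7.28% of all genes were called in those directions. The 4 h libraries carry ZC1 with DHT and ZC2 with Enz, so agent and prefix cannot be told apart in that direct test. At 24 h 38 were higher and 0 lower, where 31.3% and 33.6% were called, and within the ZC3 columns 40 were higher, by a median of 0.59. The median log2 difference was 0.13 at 4 h and 0.61 at 24 h. MYC was higher with DHT by 0.26 at 4 h (adjusted p = 9.68e-05) and by 0.51 at 24 h (SE 0.033, adjusted p = 1.55e-08). NOP16, at 52.38 and 55.05 CPM with DHT and 23.76 and 23.05 with Enz for 24 h, was the only gene past 2-fold, where 5.55% of all genes were (log2 difference 1.20, SE 0.060, adjusted p = 1.25e-09). GNL3, UBTF and NOB1 were not called at 24 h, with log2 differences of -0.02, 0.07 and 0.07.

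**Figure D3:**
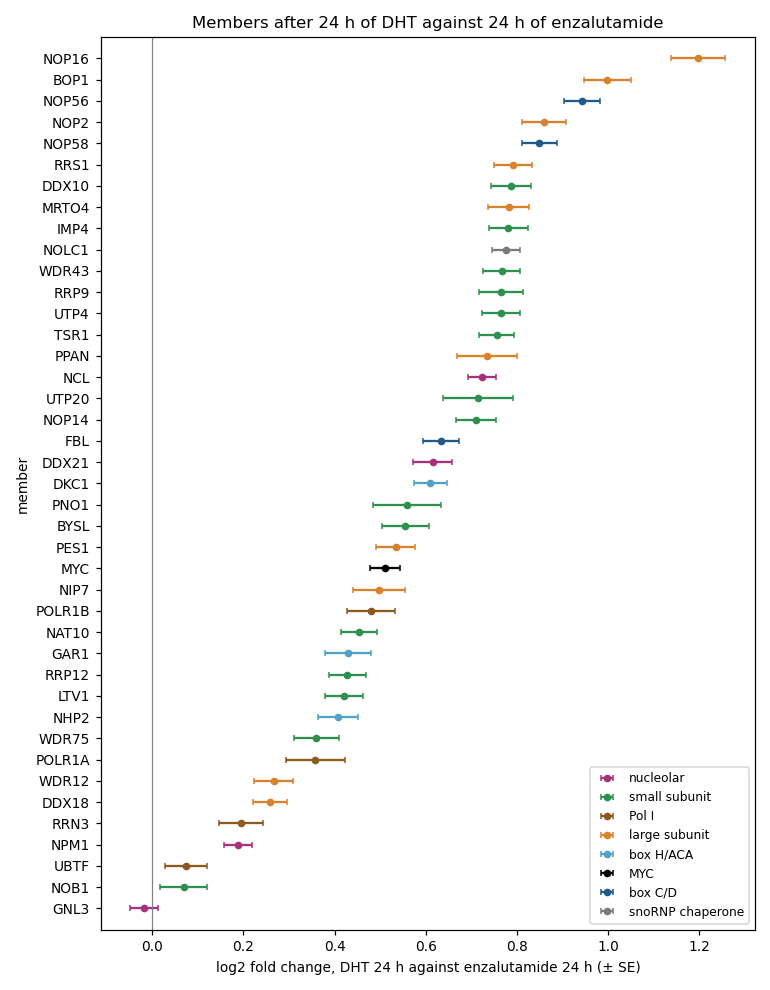
Log2 difference of each gene between 24 h of DHT and 24 h of Enz, with its standard error, colored by role. Values run from -0.02 for GNL3 to 1.20 for NOP16, and 40 of 41 lie above 0.

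In siControl cells 25 µM Enz lowered most of the list. Of the 41 genes 35 fell and 3 rose, where 24.4% of all 20369 genes tested were called down and 17.7% up (limma on log2(RPKM + 0.1), adjusted p below 0.05, a scale that understates changes of low genes). The median log2 fold change was -0.33, against -0.02 over all genes. MYC fell by 0.29 (SE 0.043, adjusted p = 0.000364), to 81.9% of vehicle. All 10 large-subunit and 14 of 15 small-subunit factors fell. NOP58 showed the largest change, from 42.41, 44.17 and 42.99 RPKM to 25.18, 23.24 and 21.90 (log2 fold change -0.88, SE 0.072, adjusted p = 5.51e-06). UTP4, a small-subunit processome protein whose promoter is printed above, went from 26.68, 26.35 and 25.17 RPKM to 18.19, 18.52 and 17.79 (log2 fold change -0.52, SE 0.042, adjusted p = 4.94e-06). In both genes every Enz library lay below every vehicle library.

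POLR1A, the largest subunit of RNA polymerase I, went from 7.789, 7.769 and 7.288 RPKM to 6.033, 6.156 and 5.675 (log2 fold change -0.35, adjusted p = 0.000478). RRS1, DKC1 and NOLC1 changed by -0.46, -0.37 and -0.23. The genes that rose were GNL3, from 105.1, 108.6 and 105.7 RPKM to 131.3, 131.3 and 133.1 (log2 fold change 0.31, adjusted p = 3.96e-06), NPM1 by 0.21 and NOB1 by 0.40. GNL3 had also risen after 24 h of 10 µM Enz, whereas NPM1 and NOB1 had log2 changes of -0.03 and 0.01 there. Not called were RRN3, GAR1 and DDX21.

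In siGATA2 cells the same Enz treatment produced no call. Of the 41 genes 0 rose and 0 fell in limma, where 0.221% of all genes were called up and 0.191% down. At an unadjusted p below 0.05, 0 were higher and 8 lower, MYC among them. The share of all genes at that unadjusted threshold was not counted, and the 0.191% does not apply to it. The 41 genes had a median of -0.07. MYC had a log2 change of -0.15 (SE 0.043, adjusted p = 0.219), and RRS1, from 12.09, 13.28 and 13.74 RPKM to 11.44, 11.52 and 11.69, had a change of -0.17 (adjusted p = 0.122). Leaving out siGATA2 vehicle replicate 1 gave 1 gene called down.

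The difference between these Enz effects was tested directly as an interaction, where a positive value means a less negative Enz effect with siGATA2. Of the 41 genes 23 were called positive and 2 negative, where 15.0% and 10.8% of all genes were called in those directions. The median was 0.22. NOP58 differed most (0.82, SE 0.101, adjusted p = 0.000284), with 29.27, 30.67 and 36.04 RPKM in siGATA2 vehicle and 30.32, 29.75 and 31.65 with Enz. UTP4, MRTO4, a large-subunit assembly factor, and POLR1A differed by 0.45, 0.45 and 0.31. GNL3 and NOB1 were the negative ones (-0.29 and -0.41). For MYC the interaction was 0.13 (SE 0.061, adjusted p = 0.144), not called, although without siGATA2 vehicle replicate 3 it was 0.18 (adjusted p = 0.0244).

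**Figure D4:**
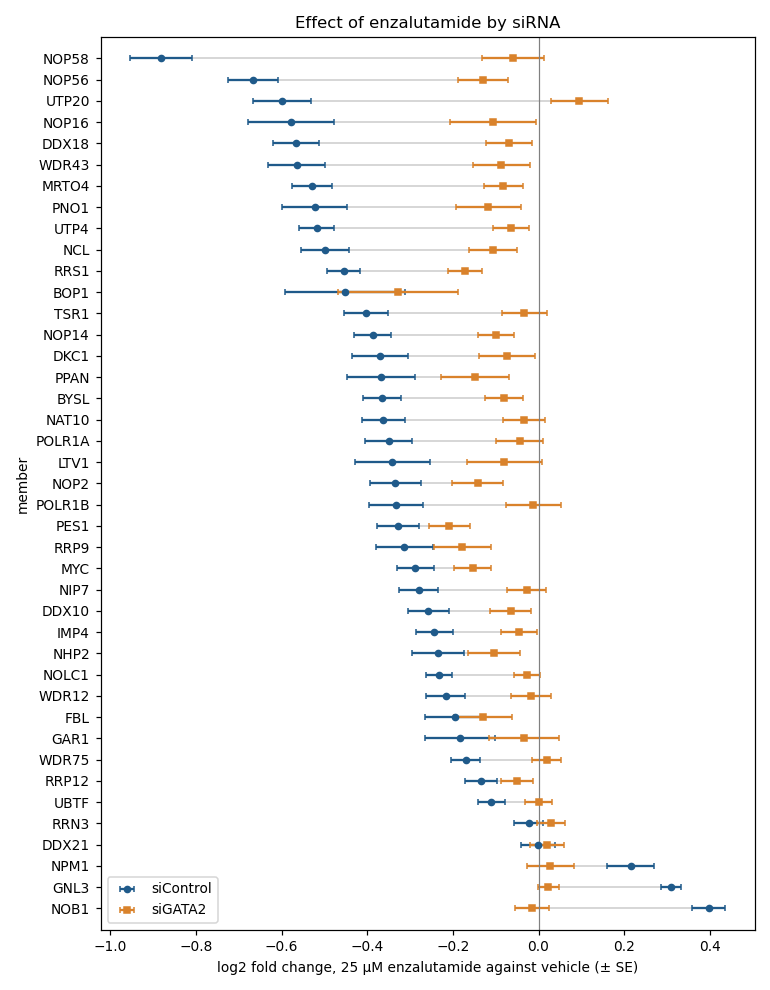
Log2 fold change of each gene by 25 µM Enz in siControl cells (circles) and siGATA2 cells (squares), with standard errors, ordered by the siControl value. Most circles lie left of 0, from -0.88 for NOP58, while squares run from -0.33 to 0.10.

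GATA2 knockdown in vehicle lowered most of the list, with MYC in front. This comparison shares the siControl vehicle libraries with the Enz comparison above. Of the 41 genes 36 fell and 2 rose, where 31.4% of all genes were called down and 24.2% up. The median log2 fold change was -0.59, and MYC, POLR1A, FBL, NOP16 and DDX18 were past 2-fold, 5 of 41 where 3.78% of all genes were. MYC changed most, by -1.72 (SE 0.043, adjusted p = 4.43e-10), to 30.3% of siControl, while GATA2 itself changed by -0.68. DDX18 changed by -1.18 and NOP16 by -1.10.

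POLR1A went from 7.789, 7.769 and 7.288 RPKM to 3.058, 3.081 and 3.410 with siGATA2 (log2 fold change -1.23, SE 0.055, adjusted p = 1.94e-08). FBL, which methylates ribosomal RNA, went from 259.7, 229.3 and 253.3 RPKM to 114.6, 132.4 and 111.8 (log2 fold change -1.05, SE 0.068, adjusted p = 3.02e-07). RRS1 went from 24.23, 23.83 and 24.32 RPKM to 12.09, 13.28 and 13.74 (log2 fold change -0.89, SE 0.039, adjusted p = 1.85e-08). These groups did not overlap in any of the 3 genes. DKC1 changed by -0.89, WDR75, a small-subunit processome protein, by -0.62, NPM1 by -0.58 and NOLC1 by -0.48. The genes that rose were RRN3 (0.23), the polymerase I initiation factor, and GNL3 (0.17). UBTF, LTV1 and TSR1 were not called.

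Under Enz, siGATA2 against siControl gave 29 genes down and 4 up, where 28.1% and 26.3% of all genes were called in those directions, and a median of -0.27. MYC stood at 33.3% of siControl (log2 fold change -1.58, SE 0.043, adjusted p = 7.56e-10). NOB1 went from 50.31, 50.56 and 54.66 RPKM to 24.27, 23.92 and 23.54 (log2 fold change -1.11, SE 0.039, adjusted p = 4.03e-09) and was, with MYC, past 2-fold, 2 of 41 where 3.78% of all genes were. The 4 genes up were RRN3, UBTF, NOP58 and TSR1.

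Other genes of the same pathway, 87 tested of 90 further assembly, polymerase I and particle factors listed, were counted in the same comparisons. With 24 h of DHT 71 rose and 3 fell, where 26.9% of all genes were called up and 23.2% down. With 24 h of Enz 3 rose and 47 fell, where 16.4% and 17% of all genes did. With Enz in siControl 7 rose and 61 fell (all genes 17.7% and 24.4%). With siGATA2 in vehicle 4 rose and 71 fell (all genes 24.2% and 31.4%). Ribosomal proteins, the subunits' own components, had other counts. After 24 h of DHT 2 of 79 rose and 17 fell, the latter near the 23.2% of all genes called down. With Enz in siControl cells 68 of 77 rose and 1 fell, with a median of 0.25 over the list. With siGATA2 in vehicle 0 rose and 69 fell.

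Other gene groups moved in the same comparisons, whose shares of all genes are given above. At 4 h of Enz those shares were 6.94% up and 6.68% down. All 15 proliferation genes rose after 24 h of DHT and fell after 24 h of Enz, with Enz in siControl cells and with siGATA2 in vehicle, and at 4 h of Enz 4 fell and 1 rose. All 6 stress response genes rose with Enz at 4 h, at 24 h and in siControl cells, and with siGATA2 in vehicle 1 rose and 4 fell. Their part in the changes of the 41 genes was not tested. Of the 12 MYC network genes tested, 3 rose and 4 fell with Enz in siControl cells, where 17.7% and 24.4% of all genes did. MAX, the dimerization partner, was among those that fell (log2 fold change -0.66, adjusted p = 6.17e-05). In the ligand experiment MAX was not called after Enz, with log2 changes of -0.07 at 4 h and 0.07 at 24 h (edgeR adjusted p = 0.397 and 0.256). With siGATA2 in vehicle 2 of the 12 rose and 5 fell, where 24.2% and 31.4% of all genes did. The MAX-binding antagonist MXD1 (1.38, adjusted p = 3.53e-09) and the MYC paralog MYCL (0.67) rose, while MLXIP (-1.03, adjusted p = 2.2e-09) and the further MXD antagonists MXD3 (-0.76) and MXD4 (-0.56) fell, and MXI1 had a change of 0.01.

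**Figure D5:**
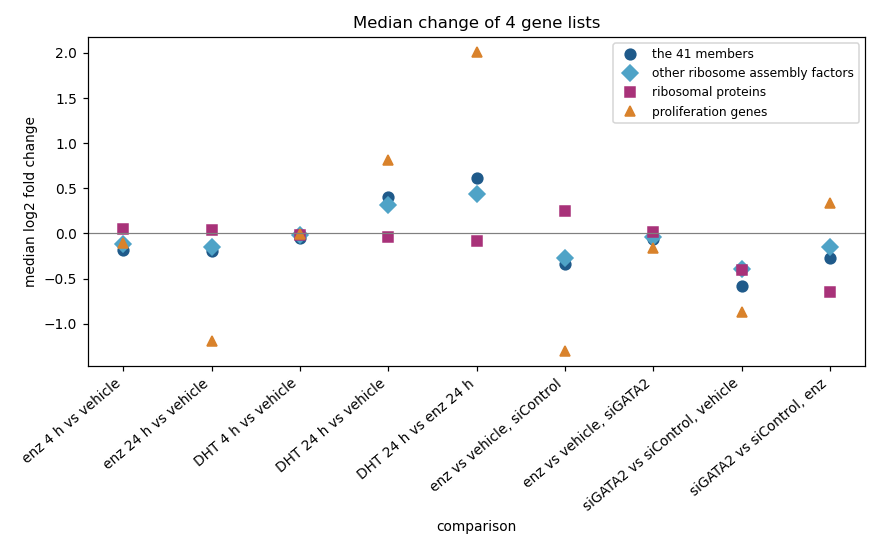
Median log2 fold change of the 41 genes, of the other ribosome assembly factors, of ribosomal proteins and of proliferation genes in 9 comparisons. The ribosomal proteins stand apart from the 41 genes with Enz in siControl cells, at 0.25 against -0.33.

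PPAN shares reads with the read-through gene PPAN-P2RY11, and RRN3 has near-identical pseudogene copies such as RRN3P3, so the split of reads among them is uncertain in both tables.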

How the data were processed

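The 24 samples are poly(A) RNA-seq libraries of LNCaP cells. Per the labels and methods, the authors aligned reads to hg19 with TopHat2 (2.0) and quantified genes in Partek. The deposited ligand tables hold estimated counts, and the deposited siRNA tables hold RPKM values, with no depth. Estimated counts were rounded, 4 vehicle columns were read, and the 3 named replicate 1 were summed as runs of 1 sample: they differed by a mean chi-square per gene of 1.51 to 1.54, against 3.42 to 3.59 to replicate 2, although the labels list 4 vehicle replicates. Counts were tested with edgeR 4.0.16 (quasi-likelihood, TMM, filterByExpr, R 4.3.3) over all 10 libraries; CPM are TMM-scaled. RPKM were tested with limma 3.58.1 (trend) on log2(RPKM + 0.1) for genes above 0 in at least 3 of the 12 libraries. A call is a Benjamini-Hochberg adjusted p below 0.05 over all genes tested. Both scripts were tested on simulated data. Alternatives included DESeq2 1.42.0, other scalings, filters, pseudocounts of 1 and 0.01, a replicate block and leaving out each library.

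The labels call the samples biological replicates but name no separate cultures, so p-values measure the spread between these samples. Same-numbered libraries did not deviate together (correlations -0.116 to 0.143), so the numbers were not taken as pairs. The 41 genes, the other lists and the tests were chosen with earlier results of these data known. In each comparison MYC and, for each role, the gene with the smallest adjusted p were eligible for values in every sample; other genes are given by counts, ranges and single values. The values of GNL3 after 24 h of Enz, and MXD3, MXD4, MXI1, COL1A1 and VWF, were added after they were seen. Promoter windows came from RefSeq (GRCh38.p14), read with Python 3.11.15.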

Additional observations from a re-analysis of the deposited data

Results flagged for a closer look

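Each value here is a log2 difference from a direct test between times or between siRNA groups, and each was called at an adjusted p below 0.05 (edgeR for times, limma for the interaction). Between 4 and 24 h of Enz, MYC (0.15), POLR1B (0.18), WDR43 (0.16) and RRS1 (0.25) were higher at 24 h. FBL (-0.23), NHP2 (-0.16), a box H/ACA protein, and NCL (-0.22) were lower at 24 h than at 4 h. In that comparison 11.7% of all genes were called up and 12.9% down. Over the alternatives the adjusted p reached 0.0604 for MYC, 0.222 for POLR1B, 0.183 for WDR43 and 0.121 for NHP2, so these 4 calls were lost in some, while RRS1, FBL and NCL kept theirs (up to 0.0195, 0.0117 and 0.00374). The 4 and 24 h libraries of each agent carry different column prefixes, so time and prefix cannot be told apart in this paragraph or for DHT in the next.

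Between 4 and 24 h of DHT, MYC (0.40), POLR1B (0.43), NOP56 (0.71), DKC1 (0.46), NOLC1 (0.65), NCL (0.38), RRP9 (0.69) and RRS1 (0.61) were higher at 24 h. The effect of Enz differed between siGATA2 and siControl cells for POLR1A (0.31), NOP58 (0.82), DKC1 (0.30), NOLC1 (0.21), UTP4 (0.45) and MRTO4 (0.45), less negative with siGATA2, and for GNL3 (-0.29), whose log2 change with Enz was 0.31 in siControl and 0.02 in siGATA2 cells. For DKC1 the adjusted p was 0.0394 and ranged from 0.0035 to 0.0909 over the alternatives. No explanation of these differences was tested.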

How the results depend on the processing

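Single values were recomputed for MYC and, in each comparison and role, for the gene with the smallest adjusted p where it was called. None of these changed direction. The other called genes entered only through counts and medians, so their directions were not checked singly. The median of the 41 genes from 4 to 24 h of Enz (-0.004), which carries no test, lay on the other side of 0 with library size alone (0.007) and without Enz 24 h replicate 1 (0.002). Of the counts of called genes, 438 of the recomputed values stayed within 1.5 times the reported count and 34 did not. For genes lower with 4 h of DHT than with vehicle (1 reported), no filter gave 0, only the compared groups 2, separate vehicle columns 2, and leaving out libraries 0 to 1. For genes lower with DHT than Enz at 4 h (1 reported), no filter and only the compared groups gave 0 each, and leaving out libraries 0 to 1. Genes higher in that comparison (19) were 12 to 19. At 24 h, library size alone gave 1 gene lower with DHT in place of 0. From 4 to 24 h of Enz, genes lower (5) were 8 with DESeq2, RLE factors or separate vehicle columns and 3 to 8 without a library, and genes higher (7) were 4 with only the compared groups and 3 to 8 without a library. Genes lower after 4 h of Enz (25) were 14 with only the compared groups and 14 to 27 without a library. Genes lower with Enz in siGATA2 cells (0) were 0 to 1. The causes were not tested. Among recomputed single-gene values 48 lost their call and 1 gained one, and among recomputed medians 59 moved by more than the spread between replicates.

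The replicate number as a block gave 0 genes lower after 4 h of DHT in place of 1, and moved no other count by over 1.5 times. The numbers do not pair the samples. A block with the numbers crossed, chosen after seeing the data, gave 0 genes lower and 17 higher for DHT against Enz at 4 h.

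Precision is limited by 2 libraries per ligand condition, and the siRNA values carry no depth and no counting interval.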
